A study of Mus musculus with 4 samples.

Results

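Transcripts of 37 kinetochore and centromere genes were followed through spermatogenesis in the mouse testis, out of 32285 genes counted. The genes were a fixed list of symbols, and all 37 were found in the files with unique molecular identifiers (UMIs) in every library. The list held 4 genes of the NDC80 complex (*Ndc80*, *Nuf2*, *Spc24*, *Spc25*), 4 of the MIS12 complex (*Mis12*, *Dsn1*, *Nsl1*, *Pmf1*), 2 of the KNL1 complex (*Knl1*, *Zwint*) and 3 of the SKA complex (*Ska1*, *Ska2*, *Ska3*). It held 13 genes of the inner kinetochore (*Cenpc1*, *Cenph*, *Cenpi*, *Cenpk*, *Cenpl*, *Cenpm*, *Cenpn*, *Cenpo*, *Cenpp*, *Cenpq*, *Cenpt*, *Cenpu*, *Cenpw*) and 2 for the centromeric nucleosome and its chaperone (*Cenpa*, *Hjurp*). The others were 3 of the corona and its motor (*Cenpe*, *Cenpf*, *Zw10*), 3 protectors of centromeric cohesion (*Sgo1*, *Sgo2a*, *Meikin*) and 3 of the chromosomal passenger complex (*Incenp*, *Birc5*, *Cdca8*).

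Single cells of dissociated testes were profiled at postnatal day 15 from 4 male pups, 2 wild-type and 2 *Meioc*-null, with 1 testis per pup. Each of the 2 batches was a littermate pair of 1 wild-type and 1 *Meioc*-null pup. The strain was C57BL/6N, and the null allele was *Meioc*tm1.1Dpc, whose product acts with YTHDC2 and RBM46 on germ-cell mRNA. Pups of both genotypes also carried 1 *Hspa2*tm1Dix allele and were homozygous for a *ROSA26*tdTomato reporter whose stop cassette had not been removed. With 2 pups per genotype, p-values rested only on the spread among these 4 pups, which the tests pooled in part over genes. Very small p-values therefore do not measure a gene's own spread.

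The kinetochore is the protein assembly that joins a chromosome to spindle microtubules. It is built on nucleosomes that contain CENP-A, which HJURP deposits, and an inner layer of CENP proteins, the constitutive centromere-associated network, carries the KNL1, MIS12 and NDC80 complexes that bind microtubules. Genes of this kind are often transcribed most in G2 and M phase, through promoter elements such as the cell cycle genes homology region (CHR), and in meiosis the shugoshins and the meiosis-specific MEIKIN keep sister centromeres together.

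Promoter windows of 4 members are shown because the genotypes differed in their transcripts in opposite directions: *Cenpa*, *Cenpe* and *Ndc80* were higher in *Meioc*-null cells and *Cenpq* was higher in wild-type cells. Each window is 300 bases of GRCm38.p6 from RefSeq, 250 before and 50 after the annotated start, written 5′ to 3′ on the strand of the gene. Capitals mark a CHR (TTTGAA or TTTAAA) or a CCAAT box (CCAAT) on either strand, so that ATTGG and TTCAAA are matches on the other strand. The windows lie at chr5:30666636-30666935 (plus strand, *Cenpa*), chr3:135212313-135212612 (plus strand, *Cenpe*), chr17:71526808-71527107 (minus strand, *Ndc80*) and chr17:40934525-40934824 (minus strand, *Cenpq*).
Cenpa: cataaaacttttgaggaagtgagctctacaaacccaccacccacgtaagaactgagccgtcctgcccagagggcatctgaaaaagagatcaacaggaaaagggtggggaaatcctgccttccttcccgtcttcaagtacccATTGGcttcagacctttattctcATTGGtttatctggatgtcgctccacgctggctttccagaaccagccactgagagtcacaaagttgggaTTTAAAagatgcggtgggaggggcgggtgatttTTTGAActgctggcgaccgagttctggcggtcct
Cenpe: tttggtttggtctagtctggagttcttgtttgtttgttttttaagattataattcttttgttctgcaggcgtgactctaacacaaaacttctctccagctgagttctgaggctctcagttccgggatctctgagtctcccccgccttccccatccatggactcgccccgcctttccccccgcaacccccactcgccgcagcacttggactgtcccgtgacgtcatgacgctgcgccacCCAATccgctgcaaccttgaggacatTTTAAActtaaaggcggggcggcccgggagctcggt
Ndc80: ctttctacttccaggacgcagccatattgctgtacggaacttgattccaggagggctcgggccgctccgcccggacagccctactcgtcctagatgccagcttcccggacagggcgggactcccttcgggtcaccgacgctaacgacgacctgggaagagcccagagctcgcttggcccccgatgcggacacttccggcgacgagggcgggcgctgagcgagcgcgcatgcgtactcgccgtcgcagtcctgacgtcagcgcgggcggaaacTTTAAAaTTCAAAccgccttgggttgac
Cenpq: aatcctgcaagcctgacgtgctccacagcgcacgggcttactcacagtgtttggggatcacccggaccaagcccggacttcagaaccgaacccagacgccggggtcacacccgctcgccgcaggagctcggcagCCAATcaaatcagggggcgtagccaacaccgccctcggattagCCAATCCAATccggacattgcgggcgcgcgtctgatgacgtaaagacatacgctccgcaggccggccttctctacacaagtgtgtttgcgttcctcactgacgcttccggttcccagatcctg

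The *Cenpa* window held 2 CHR and 2 CCAAT matches, that of *Cenpe* 1 of each, that of *Ndc80* 2 CHR matches and no CCAAT box, and that of *Cenpq* 3 CCAAT boxes and no CHR. The matches are descriptions of letters, not mapped sites.

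The 4 libraries held between 11986 and 16486 barcodes. Barcodes with over 1000 detected genes and under 10% mitochondrial UMIs numbered 29592, and 26225 cells remained after removal of likely doublets, with medians of 11698 to 14446 UMIs per library. Any 2 libraries shared 45 to 73 barcodes (0.273 to 0.501% of a library). Germ cells were divided into 12 clusters by clustering wild-type cells with the members and cell cycle genes left out of the variable genes, and *Meioc*-null cells took the cluster of their nearest wild-type cells. Clusters were numbered from spermatogonia to spermatocytes. Cluster 1 was undifferentiated spermatogonia-like and clusters 2 to 7 were differentiating spermatogonia-like. Of these, cluster 5 was led by *Plk1* and *Ccnb1*, genes of mitosis, and cluster 7 by *Rec8* and *Ctcfl*. Histone genes were among those that led clusters 2, 4, 6 and 8. The names are approximate, since marker lists overlapped. Cluster 1 had 6 of 7 markers of undifferentiated and 6 of 7 of differentiating spermatogonia. Cluster 7 had 6 of 7 of differentiating spermatogonia and 5 of 8 of early spermatocytes (mean log levels 0.634 and 0.592). *Cenpa* was also among the genes that led clusters 5 and 7, and *Ska1* among those that led cluster 6. Cluster 8, led by *Stra8*, which marks meiotic entry, had 5 of 7 markers of differentiating spermatogonia and 6 of 8 of early spermatocytes and was left unnamed. Clusters 9, 10 and 11 were early spermatocyte-like and led in part by *Prdm9*, by *Spo11* and *Ccnb3*, and by *Zfy2*. Cluster 12, led in part by *Ldhc* and *Piwil1*, was pachytene spermatocyte-like. It had 5 of 8 markers of pachytene and 7 of 8 of early spermatocytes (mean log levels 1 and 1.53). It held 310 and 392 wild-type cells and no *Meioc*-null cell, so the genotypes were compared in clusters 1 to 11.

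*Meioc* itself did not differ in 1 direction between the libraries labelled wild type and *Meioc*-null. It was at 363 and 365 CPM against 286 and 285 CPM in cluster 6 and at 482 and 477 CPM against 852 and 871 CPM in cluster 10, lower and then higher in both null libraries. In cluster 8 it was at 623 and 679 counts per 1000000 UMIs (CPM) in wild type against 671 and 641 CPM in *Meioc*-null. Tags from the 3′ end need not cover the deletion, so this level does not check the labels. *Meioc*-null cells of the late clusters differed in state from the wild-type cells beside which they were placed. In cluster 11 *Stra8* was at 15.3 and 13.8 CPM in wild type against 416 and 397 CPM in *Meioc*-null, and *Plk1*, a mitotic kinase, was at 17.9 and 18.8 against 134 and 137 CPM (wild type replicate 1 and 2, then *Meioc*-null). Other mitotic genes did not all move with *Plk1* there, since *Cdc20* was at 397 and 358 against 187 and 195 CPM, lower in both null libraries, and *Aurka* overlapped at 74.7 and 68.3 against 72.5 and 64.3 CPM. *Plk1* was also higher in *Meioc*-null cells in cluster 8, at 37.2 and 33.6 CPM against 2.71 and 3.06 CPM in wild type. When the cells of all 4 libraries were clustered together, the stages from cluster 8 on fell into clusters mainly of 1 genotype. There were 755 and 721, 380 and 892, and 351 and 895 wild-type cells in 3 clusters that held at most 3 cells of either null library. Null cells lay in clusters with member sums of 3699 and 3468, 6105 and 5861, and 4703 and 4687 CPM. The one at 3699 and 3468 CPM also held 12 and 37 wild-type cells. The wild-type cluster of 755 and 721 cells was at 3490 and 3469 CPM. From cluster 8 on, the genotype and the cell state could therefore not be told apart within a cluster.

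Along the wild-type clusters the members did not share 1 course. Summed, they made up 3082 and 3230 CPM in cluster 1, reached 5399 and 5539 CPM in the dividing cluster 5, were at 3463 and 3436 CPM in cluster 8, and at 4786 and 5042 CPM in cluster 9 before 3294 CPM (mean of both libraries) in cluster 12. All 4 libraries were far lower in somatic cells, with 576 and 564 CPM in wild-type Sertoli cells and 440.0 and 342.8 CPM in wild-type peritubular myoid cells. CPM here counts UMIs of 3′ ends and was not scaled by length, so an order of genes by it is an order of UMI counts and not of transcript abundance. No member overlapped another counted gene on its own strand, and 12 overlapped one on the opposite strand. *Sgo2a* has a near-identical relative, *Sgo2b*, so reads shared by both would be uncounted and its level is uncertain.

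**Figure D1:**
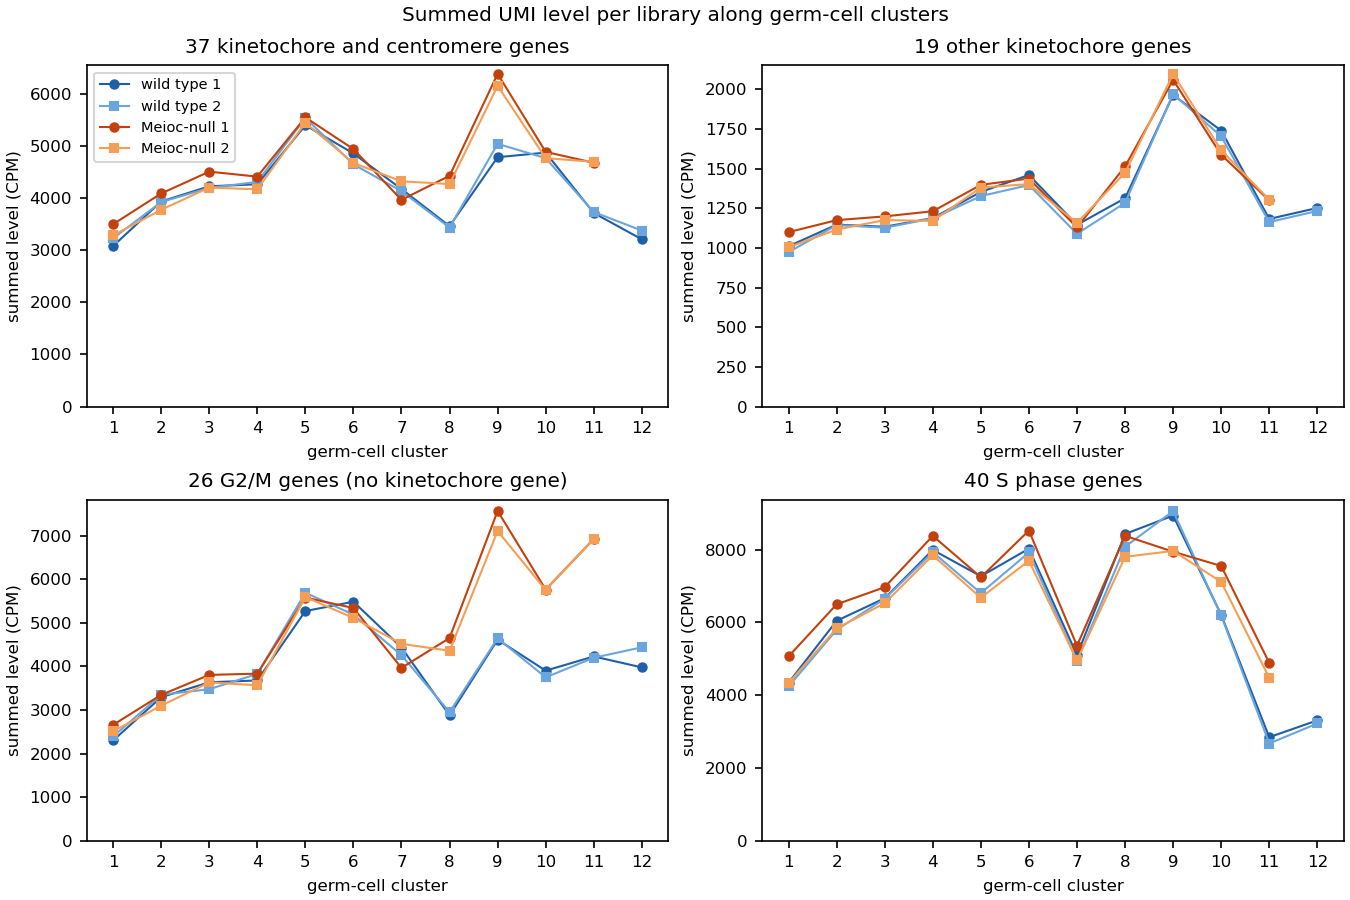
Summed level in CPM of the 37 kinetochore and centromere genes, 19 other kinetochore genes, 26 G2/M genes and 40 S phase genes in each germ-cell cluster (x axis), with 1 line per library and no null value in cluster 12. The null lines lie above the wild-type lines for the 37 genes in clusters 8, 9 and 11 and meet them in cluster 10.

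Of the 37 members, 15 had their highest wild-type mean in clusters 1 to 7 and 22 in clusters 8 to 12. Cluster 6 was the highest for 10 members, namely *Ndc80*, *Spc24*, *Cenpi*, *Cenpt*, *Cenpu*, *Ska1*, *Ska3*, *Sgo1*, *Incenp* and *Birc5*. The dividing cluster 5 was the highest for *Cenpa*, *Cenpe* and *Hjurp*. *Zwint* was highest in cluster 1 and *Zw10* in cluster 4. The *Prdm9*-led cluster 9 was the highest for 8 (*Spc25*, *Cenpf*, *Cenpk*, *Cenpl*, *Cenpm*, *Cenpq*, *Mis12*, *Ska2*), cluster 10 for 5 (*Cenpn*, *Cenpw*, *Knl1*, *Dsn1*, *Nsl1*), and cluster 12 for 5 (*Nuf2*, *Cenpo*, *Sgo2a*, *Meikin*, *Cdca8*). *Cenph* and *Pmf1* were highest in cluster 8, and *Cenpc1* and *Cenpp* in cluster 11. For 8 members the 2 wild-type libraries did not have the same highest cluster, so these positions are approximate. These are descriptions without a test, since the clusters come from the same cells.

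The centromeric histone variant *Cenpa* was highest in wild-type cluster 5 and lowest in cluster 12, where it was below its level in wild-type Sertoli and peritubular myoid cells (means of 15.1 and 12.9 CPM), so no fold is given. It was at 665 and 653 CPM in wild-type cluster 5, 38.9 and 30.9 CPM in cluster 8 and 7.65 and 6.50 CPM in cluster 12. *Spc24*, an NDC80 subunit, went from 275 and 278 CPM in cluster 6 to 22.7 and 16.8 CPM in cluster 11. *Meikin* ran the other way, with 1 UMI in each wild-type library in cluster 7, 97 and 219 UMIs in cluster 11 (23.2 and 22.6 CPM) and 648 and 494 UMIs in cluster 12 (45.0 and 34.9 CPM).

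In the other role groups the member with the most UMIs per 1000000 over the wild-type clusters was followed, a choice by count alone. *Cdca8*, the borealin subunit of the passenger complex, stayed between 211 CPM (cluster 8) and 355 CPM (cluster 12) in wild-type means. *Sgo2a*, the shugoshin that protects cohesin in meiosis, was at 76.0 and 74.9 CPM in cluster 8 and 180 and 214 CPM in cluster 12. *Cenpf*, a large protein of the corona, was at 632 and 712 CPM in cluster 8 and 1495 and 1614 CPM in cluster 9. *Cenpw*, which with CENP-T contacts DNA, was at 382 and 436 CPM in cluster 10 against 109 CPM (mean) in cluster 7. The scaffold gene *Knl1* was at 43.2 and 50.9 CPM in cluster 1 and 235 and 269 CPM in cluster 10, *Ska2* at 11.9 and 10.9 CPM in cluster 1 and 88.6 and 86.4 CPM in cluster 9, and *Pmf1*, of the MIS12 complex, at 135 and 109 CPM in cluster 8 and 50.2 and 31.8 CPM in cluster 11.

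**Figure D2:**
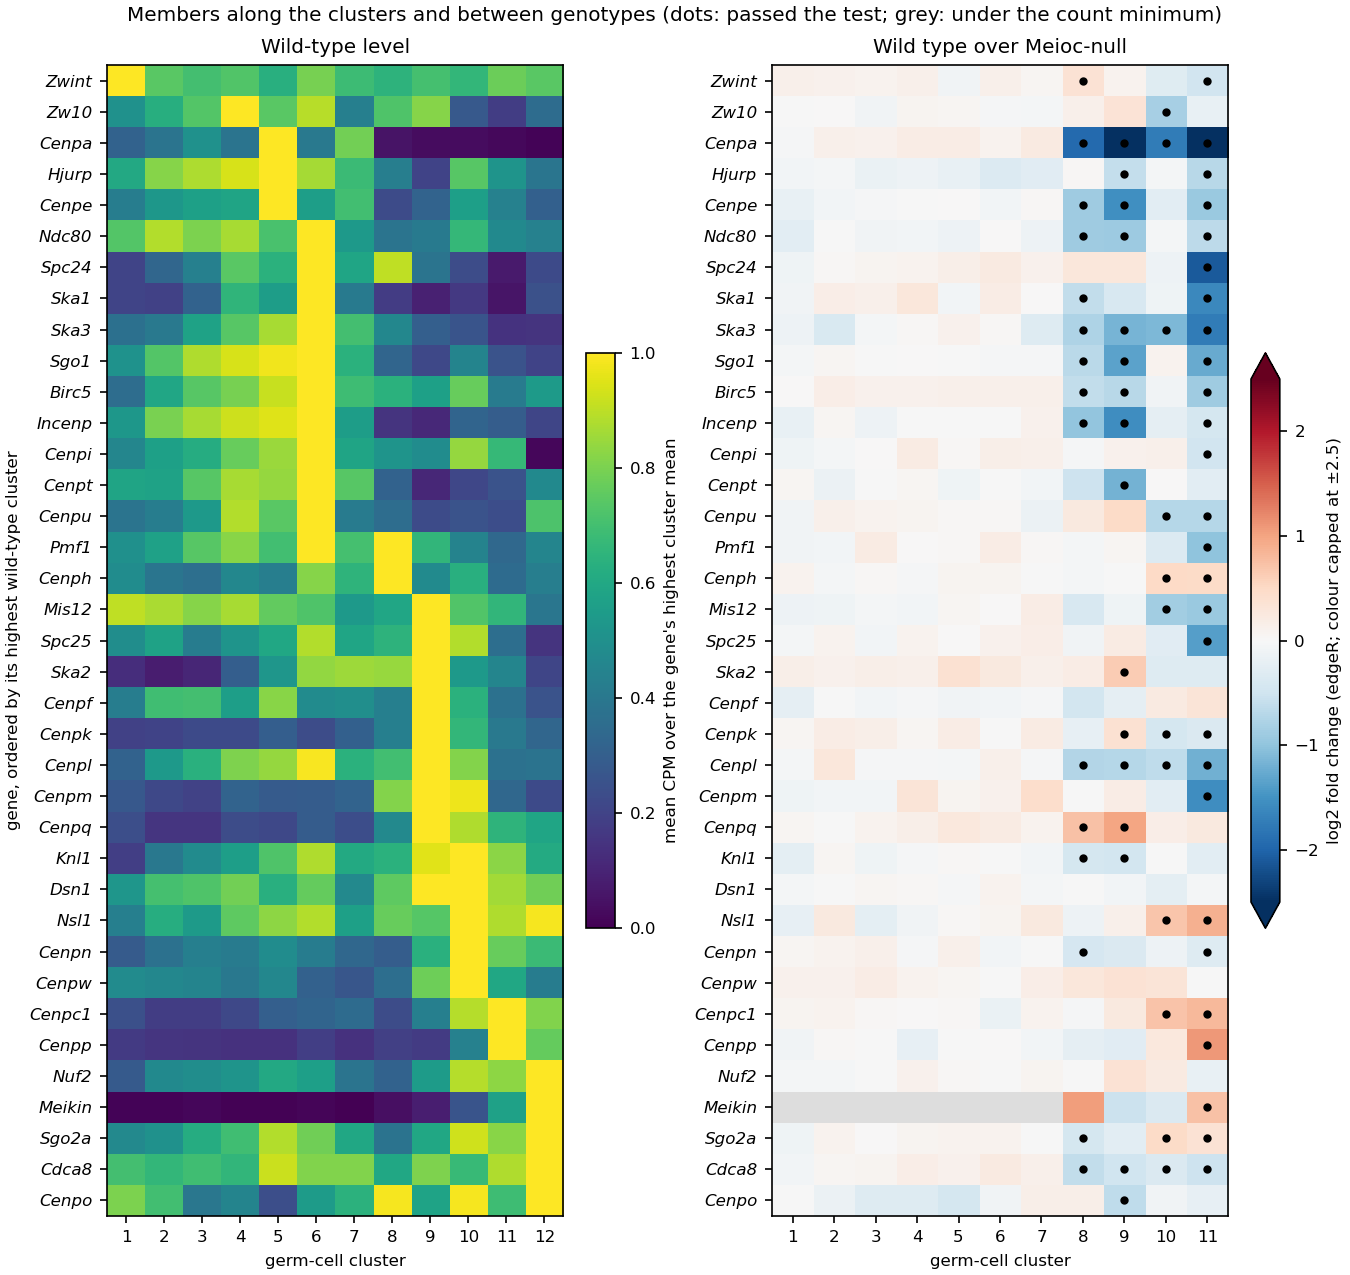
Left, wild-type mean CPM of each of the 37 genes (y axis) in germ-cell clusters 1 to 12 (x axis), divided by the gene's highest cluster mean. Right, log2 fold change of wild type over *Meioc*-null in clusters 1 to 11, with a dot where the edgeR test was passed and grey where a gene had too few UMIs, in which dots are found from cluster 8 on.

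The genotypes were first compared in clusters 1 to 7, before the *Stra8*-led cluster 8. UMIs of each library were added up over the cells of a cluster and tested with edgeR, and a gene was called where its Benjamini-Hochberg adjusted p over all genes of the cluster was under 0.05 and its absolute log2 fold change (wild type over *Meioc*-null) was over 0.1. In clusters 1 to 7 none of the 36 members tested was called in any cluster, beside 0.123% of all gene and cluster pairs. At an unadjusted p under 0.05 there were 8 of 252 member and cluster pairs. Over all genes there were from 195 of 13436 (cluster 2) to 1130 of 11626 (cluster 7) by cluster. A DESeq2 Wald test called 0 members, with 2 pairs at an unadjusted p under 0.05. *Meikin* was under the minimum of 40 UMIs in each of these clusters. With the littermate pair as a block 3 were called, *Ska2* in cluster 5 (log2 fold change 0.38, adjusted p = 0.0410), *Cenpm* in cluster 7 (0.46, adjusted p = 0.0103) and *Hjurp* in cluster 7 (-0.28, adjusted p = 0.0443), when the block called 1.31% of all genes in cluster 5 and 5.84% in cluster 7. The summed level of the members in *Meioc*-null was 0.998 to 1.03 times that in wild type in clusters 2 to 7. In cluster 1 it was 7.49% higher, at 3500 and 3284 against 3082 and 3230 CPM, without overlap of the genotypes. The G2/M genes were 10.1% higher there, also without overlap, and among cells of cluster 1 with no UMI of 6 mitotic genes, a choice made after the values were seen, the member sums overlapped (ratio 0.974). In the same kind of cells of cluster 7 the sums did not overlap, with means of 2062 against 2145 CPM (ratio 1.04), when those of all its cells overlapped.

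From the *Stra8*-led cluster 8 on, members were called in both directions, with more of them higher in *Meioc*-null when all 4 libraries were used. In cluster 8, 13 of 37 members were higher in *Meioc*-null and 2 in wild type (40.5% called, beside 12.9% of all genes, with 7.98% higher in *Meioc*-null and 4.9% in wild type). In cluster 9 the counts were 13 and 3 (43.2%, beside 33.1% of all genes, 17.7 and 15.4% by direction), in cluster 10 they were 8 and 4 (32.4%, beside 44.2%, 23.3 and 20.9% by direction) and in cluster 11 they were 21 and 6 (73.0%, beside 56.9%, 28.9 and 28% by direction). Without wild type replicate 2 the members higher in *Meioc*-null were no longer the majority of those called in cluster 10. The share of all genes is not given for that fit. The share of members called was thus above that of all genes in clusters 8, 9 and 11 and below it in cluster 10. The median log2 fold change of the members was -0.13, -0.22, -0.12 and -0.44 in clusters 8 to 11, beside -0.0070, -0.034, -0.0021 and -0.014 over all genes tested. With the pair as a block the counts were 21, 25, 19 and 31 members, beside 30.9, 50.3, 51.7 and 64.4% of all genes.

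The summed level of the members was higher in both *Meioc*-null libraries in clusters 8, 9 and 11 and not in cluster 10. It was 3463 and 3436 CPM in wild type against 4429 and 4271 CPM in *Meioc*-null in cluster 8 (26.1% higher), and 3715 and 3733 against 4679 and 4697 CPM in cluster 11 (25.9% higher). In cluster 9 it was 4786 and 5042 against 6385 and 6154 CPM (27.6% higher). There the scaling by library totals used for CPM put the median of all genes at -0.16 on the log2 scale, beside -0.03 under the scaling of the test, so part of that difference is shared by all genes. In clusters 8 and 11 that median was -0.06 and -0.09, beside -0.01 in both under the scaling of the test. In cluster 10 the sums overlapped, with means of 4820 and 4828 CPM. Without the member with the most UMIs they did not overlap there, at 3875 and 3780 against 3938 and 4028 CPM (ratio 1.04).

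The centromeric nucleosome showed the largest fitted differences among the members in each of these clusters. *Cenpa* was at 38.9 and 30.9 CPM in wild type against 140 and 138 CPM in *Meioc*-null in cluster 8 (log2 fold change -1.95, SE 0.11, adjusted p = 7.4e-06). In cluster 9 it was at 20.6 and 24.1 against 260 and 207 CPM (-3.23, SE 0.15, adjusted p = 8.2e-07), in cluster 10 at 21.4 and 24.9 against 78.9 and 79.8 CPM (-1.75, SE 0.16, adjusted p = 1.8e-09), and in cluster 11 at 14.8 and 11.9 against 114 and 109 CPM (adjusted p = 3.7e-15). The wild-type mean of cluster 11 (13.4 CPM) lay between those of wild-type peritubular myoid and Sertoli cells, so no fold is given there. Both null libraries were above both wild-type libraries in every one of the 4 clusters, and below the 578 and 599 CPM of *Meioc*-null cluster 5. *Hjurp*, the chaperone that deposits CENP-A, was higher in *Meioc*-null in clusters 9 and 11 (log2 fold change -0.60 and -0.69).

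All 3 passenger complex genes, whose products correct wrong microtubule attachments, were higher in *Meioc*-null in clusters 8, 9 and 11. *Incenp*, the scaffold of that complex, was at 33.7 and 30.9 CPM in wild type against 74.9 and 57.8 CPM in *Meioc*-null in cluster 8 (-0.98, SE 0.12, adjusted p = 0.00051), and at 21.7 and 28.2 against 96.0 and 68.0 CPM in cluster 9 (-1.55, SE 0.19, adjusted p = 0.00026). *Birc5*, survivin, was higher by 0.62, 0.70 and 0.89 on the log2 scale in clusters 8, 9 and 11 in *Meioc*-null. In cluster 10 *Cdca8* was the only one of the 3 that was called (-0.36).

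Among the corona genes *Cenpe*, the kinesin that moves chromosomes to the metaphase plate, was higher in *Meioc*-null in 3 clusters. It was at 97.8 and 112 CPM against 202 and 198 CPM in cluster 8 (-0.88, SE 0.12, adjusted p = 0.0012) and at 140 and 151 against 450 and 466 CPM in cluster 9 (-1.53, SE 0.12, adjusted p = 3.8e-05). The 2 null libraries lay close together and well above the wild-type pair. *Zw10*, part of the complex that brings dynein to kinetochores, was higher in *Meioc*-null in cluster 10 alone, at 36.2 and 31.5 against 22.3 and 17.2 CPM (-0.83, SE 0.21, adjusted p = 0.0018). *Cenpf* was not called in any cluster, although in cluster 8 it was at 632 and 712 CPM in wild type against 987 and 926 CPM in *Meioc*-null (-0.45, SE 0.17, adjusted p = 0.11), and with the block it was called in all 4 clusters, higher in *Meioc*-null in clusters 8 and 9 and in wild type in clusters 10 and 11.

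In the NDC80 complex, which makes the main microtubule contact, *Ndc80* was higher in *Meioc*-null in clusters 8, 9 and 11. Its level in cluster 8 was 47.0 and 43.3 CPM in wild type against 88.2 and 84.3 CPM in *Meioc*-null (-0.88, SE 0.10, adjusted p = 0.00044). *Spc24* and *Spc25* were called in cluster 11 alone. There *Spc24* was at 22.7 and 16.8 CPM in wild type against 91.5 and 82.2 CPM in *Meioc*-null (-2.10, SE 0.15, adjusted p = 6.5e-12), whereas in cluster 8 it was at 265 and 235 against 210 and 217 CPM. *Nuf2* was not called in any cluster (adjusted p of 0.056 to 0.98). With the block *Nuf2* was called in cluster 9 (0.36, adjusted p = 0.0064), *Spc24* in clusters 8 and 9 (both 0.28) and *Spc25* in cluster 9 (0.20), all higher in wild type, and *Spc25* in cluster 10 higher in *Meioc*-null (-0.28).

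In the SKA complex, which steadies the microtubule contact, *Ska3* was higher in *Meioc*-null in all 4 clusters. It was at 14.6 and 11.7 against 32.6 and 23.0 CPM in cluster 10 (-1.11, SE 0.24, adjusted p = 0.00042) and at 9.33 and 5.59 against 22.1 and 27.0 CPM in cluster 11 (-1.75, SE 0.26, adjusted p = 2.6e-06). *Ska1* was at 5.74 and 5.69 against 19.5 and 17.6 CPM in cluster 11 (-1.60, SE 0.27, adjusted p = 1.3e-05). *Ska2* went the other way, at 88.6 and 86.4 CPM in wild type against 63.5 and 59.7 CPM in *Meioc*-null in cluster 9 (0.63, SE 0.12, adjusted p = 0.0025). Subunits of 1 complex thus differed in sign within cluster 9, where *Ska3* was at -1.17.

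Of the 13 inner kinetochore genes, 1, 2, 2 and 3 were higher in wild type in clusters 8 to 11 and 2, 3, 3 and 6 were higher in *Meioc*-null, when 4.9, 15.4, 20.9 and 28% of all genes were higher in wild type and 7.98, 17.7, 23.3 and 28.9% were higher in the null. *Cenpq* was at 145 and 169 CPM in wild type against 93.1 and 103 CPM in *Meioc*-null in cluster 8 (0.73, SE 0.14, adjusted p = 0.0074), and at 300 and 367 against 154 and 211 CPM in cluster 9 (0.99, SE 0.19, adjusted p = 0.0055). *Cenpc1*, whose product binds CENP-A nucleosomes, was at 136 in both wild-type libraries against 75.0 and 87.0 CPM in cluster 10 (0.72, SE 0.13, adjusted p = 6.3e-05) and at 154 and 152 against 95.03 and 89.02 CPM in cluster 11 (0.81, SE 0.11, adjusted p = 1.3e-06). *Cenpp* was at 343 and 407 against 170 and 202 CPM in cluster 11 (1.08, SE 0.14, adjusted p = 5.6e-07), and *Cenph* was higher in wild type in clusters 10 and 11, at 114 and 116 against 86.4 and 76.8 CPM and at 62.0 and 66.2 against 55.3 and 44.1 CPM (0.49 and 0.47, adjusted p = 0.0023 and 0.0049).

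Other inner kinetochore genes were higher in *Meioc*-null. *Cenpl* was called in all 4 clusters (log2 fold changes of -1.20 to -0.64) and *Cenpm* in cluster 11, at 44.3 and 40.5 against 134 and 129 CPM (-1.56). *Cenpn*, *Cenpu*, *Cenpt*, *Cenpo* and *Cenpi* were called in 1 or 2 clusters each, and *Cenpw* in none, although with the block *Cenpw* was called in clusters 8, 9 and 10, higher in wild type (0.27, 0.35 and 0.31). *Cenpk* was called in both directions. In cluster 9 it was higher in wild type, at 253 and 256 against 195 and 228 CPM (0.38, SE 0.13, adjusted p = 0.040), and it was higher in *Meioc*-null in clusters 10 (-0.44) and 11 (-0.37), and the difference of the genotype effect between clusters was past the threshold (0.81 for cluster 9 minus 10, SE 0.11, adjusted p = 9.4e-07, in a test that called 31.6% of all genes, and 0.71 for cluster 9 minus 11, where 45.6% were called). Passing that test is not separate support, since the clusters were chosen because the calls had opposite signs. The *Cenpk* call in cluster 9 held under 9 of 16 alternatives. Its log2 fold change there was 0.21 to 0.58 with 1 library left out.

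Of the MIS12 complex, which links the inner and outer layers, *Mis12* was at 53.4 and 54.8 CPM in wild type against 102 and 96.2 CPM in *Meioc*-null in cluster 10 (-0.88, SE 0.14, adjusted p = 7.8e-06) and was also higher in *Meioc*-null in cluster 11 (-0.92), as was *Pmf1* (-1.01). *Nsl1* was higher in wild type in both clusters, at 25.7 and 18.6 against 18.5 and 8.54 CPM in cluster 10 (0.70, SE 0.28, adjusted p = 0.044) and at 18.9 and 20.2 against 11.1 and 11.4 CPM in cluster 11 (0.88, SE 0.23, adjusted p = 0.0023). In cluster 10 the nearest libraries of the genotypes, at 18.6 and 18.5 CPM, lay almost together, and the call held under 8 of 14 alternatives. With 1 library left out the *Nsl1* log2 fold change there was 0.23 to 1.23. *Dsn1* was not called, with or without the block. In the KNL1 complex *Knl1* was higher in *Meioc*-null in clusters 8 and 9 (-0.44 and -0.45), while *Zwint* was at 85.3 and 71.9 against 64.2 and 61.9 CPM in cluster 8 (0.37, SE 0.10, adjusted p = 0.041) and at 98.8 and 89.5 against 141 and 134 CPM in cluster 11 (-0.48, SE 0.11, adjusted p = 0.00070). The effect on *Zwint* differed by 0.82 between clusters 8 and 11 (SE 0.11, adjusted p = 1.5e-08, in a test that called 54.9% of all genes). These clusters were chosen because the calls had opposite signs, so passing is not separate support. The *Zwint* call in cluster 8 held under 8 of 17 alternatives.

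The cohesion protectors divided by gene. *Sgo1*, the shugoshin of mitosis, was higher in *Meioc*-null in clusters 8, 9 and 11, and was at 19.2 and 19.4 against 55.8 and 51.3 CPM in cluster 9 (-1.34, SE 0.15, adjusted p = 0.00020). *Sgo2a* was higher in *Meioc*-null in cluster 8, at 110 and 102 against 76.0 and 74.9 CPM (-0.44), and higher in wild type in cluster 10, at 190 and 175 against 123 and 135 CPM (0.47, SE 0.13, adjusted p = 0.0036), and in cluster 11, at 159 and 164 against 142 and 125 CPM (0.36, SE 0.11, adjusted p = 0.0092). The *Sgo2a* effect in cluster 8 differed from that in cluster 10 by 0.88 and from that in cluster 11 by 0.81 (adjusted p = 7.7e-08 and 2.8e-09, when 45.1 and 54.9% of all genes passed). The pairs of clusters were chosen because the calls had opposite signs, so passing is not separate support. In cluster 11 *Meikin* was higher in wild type, at 23.2 and 22.6 against 15.0 and 14.2 CPM (0.73, SE 0.21, adjusted p = 0.0047). In clusters 8, 9 and 10 it was not called, at 1.80 and 1.59 against 0.809 and 0.890 CPM, 2.85 and 3.73 against 3.45 and 7.06 CPM, and 10.7 and 10.1 against 11.5 and 14.4 CPM. With the block it was called in cluster 8 (1.05, adjusted p = 0.047), on few UMIs, near the wild-type Sertoli mean of 0.66 CPM. The pachytene marker *Piwil1* was also higher in wild type there, at 23.1 and 3.18 against 0.455 and 0.445 CPM. Whether RNA from cells of cluster 12, which only wild type had, entered these values was not tested.

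**Figure D3:**
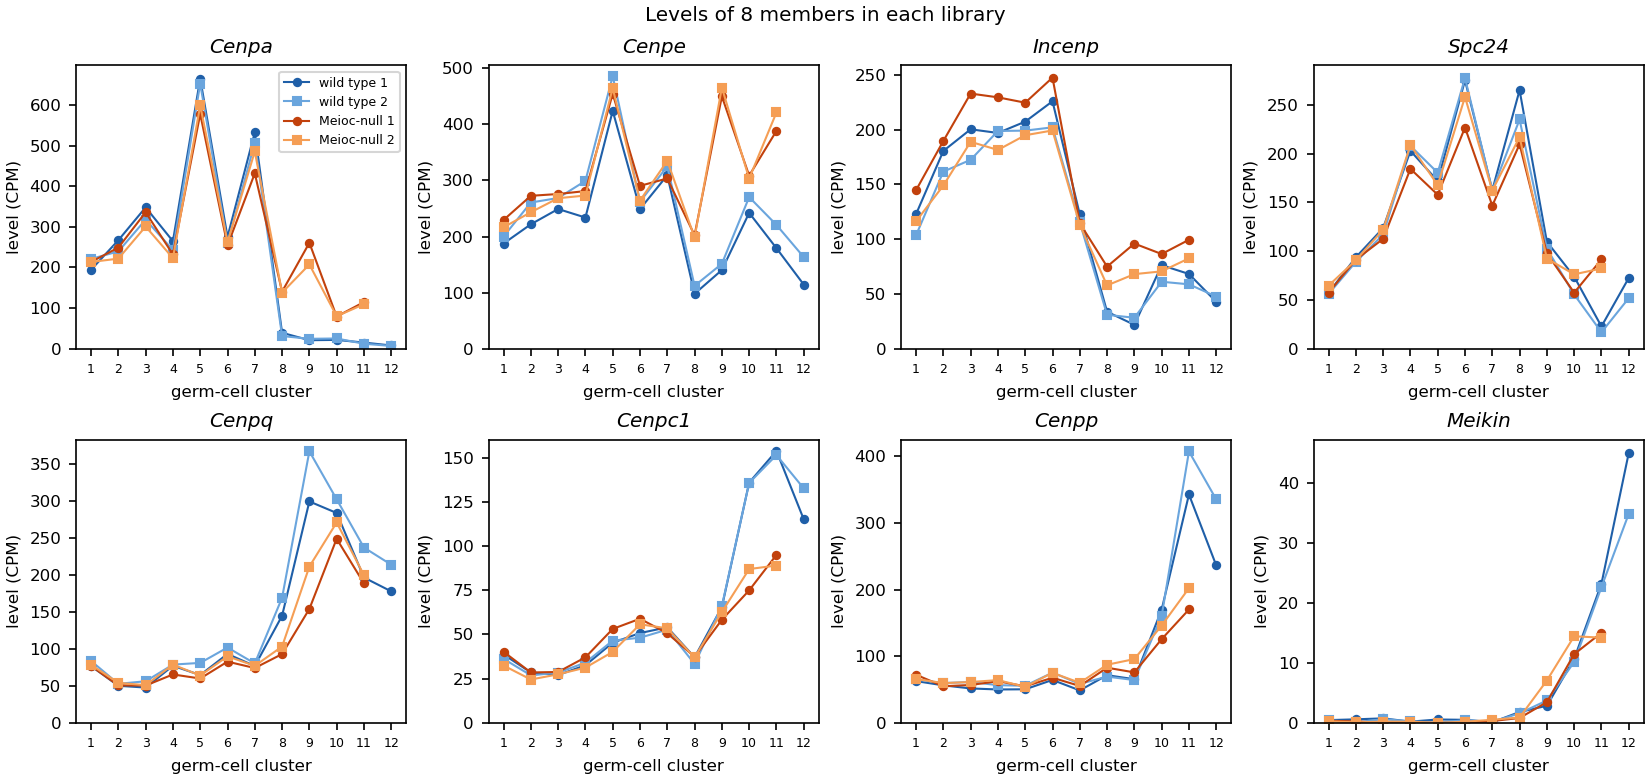
Level in CPM of *Cenpa*, *Cenpe*, *Incenp*, *Spc24*, *Cenpq*, *Cenpc1*, *Cenpp* and *Meikin* in germ-cell clusters 1 to 12 (x axis), with 1 line per library and null lines ending at cluster 11. The null lines of *Cenpa*, *Cenpe* and *Incenp* separate upward from the wild-type lines at cluster 8, with those of *Incenp* overlapping again in cluster 10, and those of *Cenpq*, *Cenpc1* and *Cenpp* lie below them in the clusters where they were called.

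Over clusters 8 to 11, 23 members were called higher in *Meioc*-null only, 7 higher in wild type only (*Cenpc1*, *Cenph*, *Cenpp*, *Cenpq*, *Ska2*, *Meikin*, *Nsl1*), 3 in both directions (*Cenpk*, *Zwint*, *Sgo2a*) and 4 not at all (*Nuf2*, *Cenpf*, *Cenpw*, *Dsn1*). Of the 9306 genes tested in each of these clusters, 35.8% were called higher in *Meioc*-null only, 35% higher in wild type only, 7.04% in both directions and 22.2% not at all. *Cenpa*, *Cenpl*, *Ska3* and *Cdca8* were higher in *Meioc*-null in all 4 clusters, as were 4.05% of all genes. With the block some members were also called against these groups, *Cenpp* in cluster 9 (-0.30) and *Ska2* in cluster 11 (-0.32) higher in *Meioc*-null, and *Zw10* in cluster 9 (0.33), *Spc24* in clusters 8 and 9 and *Spc25* in cluster 9 higher in wild type. Beside these and the calls of *Nuf2*, *Cenpf*, *Cenpw*, *Meikin* and *Spc25* given above, the calls made only with the block in clusters 8 to 11 were *Cenpq* in cluster 11, higher in wild type, and *Cenpt* and *Mis12* in cluster 8, *Cenpn* and *Sgo2a* in cluster 9, *Cenpe*, *Cenpm*, *Zwint* and *Pmf1* in cluster 10 and *Knl1* in cluster 11, all higher in *Meioc*-null.

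Single cells were then compared at 1 depth, each thinned to 5000 UMIs, with shallower cells left out (0.208 to 14.6% of cells per library in clusters 8 to 11). The median cell of cluster 8 had 17 member UMIs in both wild-type libraries and 20 and 19 in *Meioc*-null, and the cell at the 90th percentile had 24 in both wild-type libraries and 34 and 33 in *Meioc*-null. In cluster 8, 0.631 and 1.44% of wild-type cells and 17.9 and 17.0% of *Meioc*-null cells had at least 30 member UMIs, a limit chosen after the counts were seen, with exact binomial 95% intervals of 0.205 to 1.46% and 0.721 to 2.56% and of 16.1 to 19.9% and 14.9 to 19.3%. In cluster 9 these shares were 20.4 and 21.3% against 61.5 and 50.5%, in cluster 10 they were 16.8 and 14.01% against 18.1 and 15.2%, and in cluster 11 they were 1.79 and 2.40% against 9.86 and 13.8%. Thinning scales each cell by its total, so the shift of all genes described for the summed levels is not taken out of these shares. The genotypes did not overlap in clusters 8, 9 and 11 and overlapped in cluster 10, and a two-sided exact permutation test over 4 libraries cannot give a p below 0.33. At the limit of 10 member UMIs, 95.8 to 100% of cells of clusters 8 to 11 were counted in every library, near the most that can be counted, with the genotypes overlapping in clusters 8 and 10 and higher in *Meioc*-null without overlap in clusters 9 and 11 (by 0.30 and 2.02 points).

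**Figure D4:**
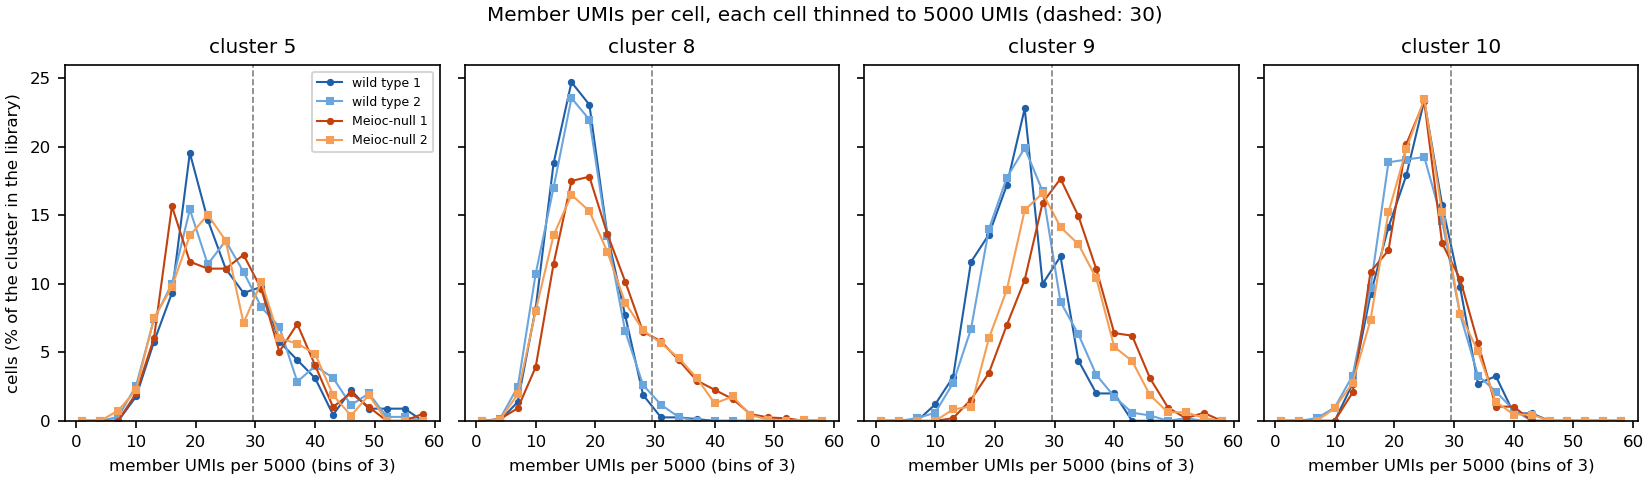
Share of cells (y axis, % of the cluster in each library) by member UMIs per cell after thinning to 5000 UMIs (x axis, bins of 3) in clusters 5, 8, 9 and 10, with 1 line per library and a dashed line at 30. In cluster 8 the null libraries have a larger tail from 30 UMIs on (17.9 and 17.0% of cells) than the wild-type libraries (0.631 and 1.44%), and in cluster 10 the 4 lines lie together.

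Other cell cycle lists were counted in clusters 8 to 11, where 12.9, 33.1, 44.2 and 56.9% of all genes were called. The share called was 73.1, 84.6, 65.4 and 76.9% of the G2/M genes tested. It was 36.8, 47.1, 33.3 and 61.1% of other kinetochore genes and 7.5, 50, 45 and 71.8% of S phase genes. Of 26 G2/M genes without kinetochore genes, 19, 22, 16 and 18 were higher in *Meioc*-null in clusters 8 to 11, and 0, 0, 1 and 2 in wild type, and their summed level was 54.6, 58.5, 50.5 and 64.3% higher in *Meioc*-null, without overlap. Of 19 other kinetochore and checkpoint genes, 6 of 19, 5 of 17, 1 of 18 and 6 of 18 tested were higher in *Meioc*-null and 1, 3, 5 and 5 in wild type, and the difference of their summed level (*Meioc*-null above wild type) was 15.0, 5.58, -6.95 and 10.98%. Of 40 S phase genes, 2 were higher in wild type in cluster 8 and 1 was higher in *Meioc*-null, 15 and 5 by the same order in cluster 9, 3 and 15 for cluster 10, then 1 and 27 (of 39) for cluster 11. Their summed level differed in the same sense by -1.98, -11.6, 18.2 and 69.7%, with overlap in cluster 8. The sums of these lists were scaled by library totals. Under that scaling the median log2 fold change of all genes was -0.06, -0.16, 0.0086 and -0.09 in clusters 8 to 11. The sums share that shift, and the 5.58% of other kinetochore genes in cluster 9 is smaller than it.

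The cluster 8 difference was next measured in cells with no UMI of 6 mitotic genes (*Plk1*, *Ccnb1*, *Cdc20*, *Aurka*, *Ube2c*, *Tpx2*) after thinning, a choice made after the values were seen, which left 211 and 219 of 798 and 774 wild-type cells and 325 and 247 of 1697 and 1222 *Meioc*-null cells. In these cells the summed level of the members was 3344 CPM for wild type and 3394 CPM in *Meioc*-null (ratio 1.01), and 4 of the members were called in place of 15, beside 6.84% of all genes. The 4 were *Cenpa* (log2 fold change -0.53, adjusted p = 0.042) and *Incenp* (-0.61, adjusted p = 0.047) in the null direction and *Cenpq* (0.83, adjusted p = 0.00083) and *Cenpw* (0.66, adjusted p = 0.037) in the wild-type direction. *Cenpe* was at 0.17 (adjusted p = 0.57) and *Ndc80* at -0.51 (adjusted p = 0.051). Fewer than 50 such cells were present in at least 1 library in clusters 9 to 11, so the comparison was not made there. In wild-type cluster 8 *Tpx2* was at 177 and 207 CPM and the other genes of the 6 at 2.71 to 50.3 CPM. Wild-type cells were thus left out largely by *Tpx2*, and the cells kept are not a choice by cell division alone.

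In Sertoli cells the summed level of the members was 674 and 713 CPM in *Meioc*-null against 576 and 564 CPM in wild type (21.7% higher), without overlap, and in peritubular myoid cells it overlapped. Both depended on which cells were kept. Without doublet removal the Sertoli means were 1124 against 1016 CPM with overlap and the myoid means were 864 against 715 CPM without overlap. In Sertoli cells the libraries also overlapped among cells with at least 5000 UMIs (628 against 520 CPM) and under a 5% mitochondrial limit, where *Meioc*-null was the lower (881 against 970 CPM). None of 35 tested was called in peritubular myoid cells, beside 0.111% of all genes, and 0 were called by the DESeq2 Wald test. At an unadjusted p under 0.05 there were 3 of 35, beside 326 of 12606 genes. In Sertoli cells 1 of 34 was called, beside 0.676% of all genes, and 8 of 34 had an unadjusted p under 0.05, beside 631 of 11394 genes. The call was *Cenpe*, at 10.7 and 10.4 CPM in wild type against 19.6 and 29.3 CPM in *Meioc*-null (-1.17, SE 0.23, adjusted p = 0.0030). The germ-cell gene *Stra8* was also higher in these *Meioc*-null Sertoli cells, at 89.7 and 54.2 against 20.5 CPM in both wild-type libraries, and its part in the *Cenpe* value was not tested. Without doublet removal *Cenpe* was at -0.31 (adjusted p = 1.00), the DESeq2 Wald test did not call it (adjusted p = 0.22), and with the block *Cenpf* (-0.63) and *Knl1* (-0.87) were called beside it, when 1.27% of all genes were.

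Promoter windows were found for 32 of the 37 members. The first window listed was used for each. Of these 32 windows, 18 (56.2%) held a CHR and 22 (68.8%) held a CCAAT box. For the first window listed of 27025 mouse genes the shares were 27.8 and 37.9%. Over all 32851 mouse promoters of the same length they were 27.6 and 37.4%. A CHR was present in 14 of the 20 windows of members higher in *Meioc*-null only and in 1 of the 5 of members higher in wild type only (*Cenpc1*). A CCAAT box was present in 13 of those 20 and 4 of those 5. The counts are small and were not tested. Windows of *Nsl1*, *Ska1*, *Spc24*, *Meikin* and *Incenp* were not analysed here.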

How the data were processed

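Dissociated testes were profiled with the 10x Genomics 3′ v3.1 chemistry. The authors aligned reads and counted unique molecular identifiers with Cell Ranger 4.0.0 on the mouse GRCm38 build with GENCODE annotation, and the deposited values are raw counts per gene and barcode. The 4 libraries held 158291903 to 190455307 UMIs. Barcodes with over 1000 genes and under 10% mitochondrial UMIs were kept. The highest Scrublet scores were removed at 0.8% per 1000 barcodes (the caller's own threshold marked 1.94 to 4.58% of barcodes).

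Wild-type germ cells were clustered (scanpy 1.11.5, 2000 variable genes without the members and cycle lists, 30 principal components centred by batch, Leiden on 20 neighbours), and every cell took the majority cluster of its 30 nearest wild-type cells. Germ and somatic clusters were told apart by lists of which 3 or more fixed markers had a UMI in at least 25% of cells, with the higher mean level. Names within the germ cells did not follow from that rule alone. UMIs were added up over the cells of each library in a cluster and tested with edgeR 4.0.16 (R 4.3.3, TMM, robust quasi-likelihood, genotype as the only term) for genes with at least 40 UMIs over the 4 libraries, in clusters with at least 50 cells in each library. A call needed an absolute log2 fold change over 0.1 and an adjusted p (Benjamini-Hochberg, by cluster) under 0.05. CPM is per 1000000 UMIs of the cluster's sum. Intervals cover counting error only. On simulated counts for 10407 genes of cluster 9, 55 of 100 genes changed 1.5-fold and 80 of 98 changed 2-fold were recovered, and 4 of 10209 unchanged genes were called. The simulation gave every gene the same dispersion, had no batch effect and changed few genes. It therefore does not measure how the test performs on these libraries.

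Replicate numbers mark littermate pairs per the labels, and deviations of same-numbered libraries from their group means correlated at 0.318 to 0.541 over genes in clusters 1 to 11. The pair was an alternative block, which left fewer residual degrees of freedom than genotype alone. In all, 20 settings were run, with other normalizations, filters, tests (DESeq2 1.42.0), clusterings and left-out libraries. Values in every library were given for the 4 called members with the largest absolute fold change in each cluster, the member of each role group with the highest wild-type mean, members called against the direction of most in their cluster, and *Meikin*, while others were chosen after their values were seen. The members and lists were chosen with earlier results of these data known. Promoter windows came from RefSeq (GRCm38.p6), and overlaps of genes from GENCODE vM21.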

Additional observations from a re-analysis of the deposited data

Results flagged for a closer look

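For 3 members the genotype effect was called with opposite signs in different clusters. In each case the difference itself passed the edgeR test of the interaction, in which 31.6 to 54.9% of all genes passed. Only members called in both directions were put to that test. Others with opposite signs, such as *Spc24* in clusters 8 and 11, were not. For *Sgo2a*, the log2 effect (wild type over *Meioc*-null) was 0.88 higher in cluster 10 than in cluster 8 (SE 0.11, adjusted p = 7.7e-08, 45.1% of all genes) and 0.81 higher in cluster 11 than in cluster 8 (SE 0.10, adjusted p = 2.8e-09, 54.9%). For *Zwint*, it was 0.82 higher in cluster 8 than in cluster 11 (SE 0.11, adjusted p = 1.5e-08, 54.9%). For *Cenpk*, it was 0.81 higher in cluster 9 than in cluster 10 (SE 0.11, adjusted p = 9.4e-07, 31.6%) and 0.71 higher in cluster 9 than in cluster 11 (SE 0.12, adjusted p = 1.9e-06, 45.6%). The clusters come from the same 4 pups, and the pairs of clusters were chosen because the calls had opposite signs.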

How the results depend on the processing

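Of the values of named members, 478 kept their side of the threshold, 61 no longer passed it, 1 newly passed it and 1 reversed, *Cenpe* in cluster 8 among cells with no UMI of 6 mitotic genes (0.17). *Meikin* in cluster 9, not called, was at 0.17 without *Meioc*-null replicate 2, beside -0.53 with all libraries. The cells with no UMI of the mitotic genes, chosen after seeing the data, gave 4 calls and a summed ratio of 1.01 in cluster 8. The littermate pair as a block gave 3 calls in clusters 1 to 7, 25 in cluster 9 and 19 in cluster 10, and changed none of the calls made without it. Bonferroni correction over all genes and clusters left 1, 2, 1 and 11 calls in clusters 8 to 11, and the DESeq2 Wald test 7 in cluster 10. With at least 14 clusters, a choice made after seeing the data, the match of cluster 10 had 23. That match held 312 and 790 wild-type and 364 and 414 *Meioc*-null cells. Cluster 10 itself held 188 and 527 and 226 and 227, so the 23 calls are not of the same cells. The share of all genes is not given for Bonferroni correction, the DESeq2 Wald test, finer clusters or left-out libraries. Those counts therefore describe the members only. Leaving out 1 library gave 0 calls in clusters 1 to 7 each time, 10 to 13 in cluster 8, 11 to 18 in cluster 9, 6 to 12 in cluster 10 and 23 to 27 in cluster 11, with the 6 in cluster 10 (3 in each direction) without wild type replicate 2. Without the member with the most UMIs the summed ratio was 1.22, 1.04 and 1.33 in clusters 8, 10 and 11. The difference in the share of cells with a high member sum was 2.19, 0.685 and 0.83 points in clusters 8, 9 and 10 at 3000 UMIs, 0, 0 and 0.07 points in clusters 9, 10 and 11 at a limit of 5, and 16.4, 35.2, 1.24 and 9.76 points in clusters 8 to 11 at the limit of 30 chosen after seeing the data. The causes were not tested. A 5% mitochondrial limit, or at most 2 UMIs of G2/M genes, left enough cells in cluster 7 alone among clusters 1 to 11, so the others were not tested. Joint clustering separated the genotypes from cluster 8 on and gave no match for clusters 4, 5, 8, 9 and 10 and no null cell in the match of cluster 11, clustering with the listed genes allowed gave no cluster 3 or 10, and finer clustering gave no cluster 11, so these were not tested there.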
